A study of Homo sapiens with 12 samples.

Results

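The genes described here are 51 genes listed between CMSS1 and POGLUT1 on chromosome 3, in the region labelled 3q12-q13. The region was picked in earlier results of the same arrays because its median difference between Lo and Hi cells was shifted, so Lo minus Hi values chose these genes and are given below as a description, with no test. Of the 51 genes, 50 were measured, among 18417 genes in all. LNP1 had no probe set carrying its symbol alone and has no value, and NEPRO was matched under its RefSeq symbol RMP64. A total of 45 of the 50 had a mean log2 expression value of at least 7 over the 12 arrays, as did 12212 of all genes, and medians below are over these 45 unless another number is given. The other 5 were SIDT1, CD200, BOC, LSAMP and B4GALT4, whose means ran from 5.47 to 6.94. B4GALT4 lay just under that limit, and SENP7, with a mean of 7.09, just over it. All 50 lie on chromosome 3 in RefSeq, from which the order of the genes was taken. A further 32 measured genes lie between CMSS1 and POGLUT1 but are not in the list, and 5 of them reached a mean log2 value of 7.

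The arrays measured total RNA of EA.hy 926 cells, a hybrid line made by fusing human umbilical vein endothelial cells with the lung carcinoma line A549, after 48 h with or without 0.5 uM pemetrexed (PMX). There were 4 groups of 3 biological replicates: Lo cells with PMX, Lo control cells, Hi cells with PMX and Hi control cells. Lo cells had been adapted to a low-folate Medium 199 holding 23 nM folic acid, while Hi cells were kept in parallel in the same medium with folic acid added to 9 uM, the usual level for the line; both media held 10% fetal calf serum, and medium was renewed 24 h before treatment. All groups are 1 established cell line, the labels do not say what the control cells received in place of PMX, and the Lo cells had been adapted as a culture of their own, so a Lo minus Hi difference also holds any other difference between the cultures.

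Pemetrexed is an antifolate: inside the cell it is extended with glutamates and blocks thymidylate synthase and other folate enzymes, which starves DNA synthesis of thymidine and purine nucleotides. The genes of the segment share a position and not a pathway. They include matrix and cytoskeletal genes, adhesion proteins, transcription and signalling regulators, enzymes of the mitochondria and the secretory route, genes of translation, and genes of the centrosome and cilium. As background, when cells carry extra copies of a chromosome segment, the transcripts of many of its genes tend to be raised by similar amounts, while regulation of single genes moves neighbours separately. DNA copy number was not measured on these arrays and was not tested.

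Before the results, 2 arrays stood apart from their groups. On the first principal component of the genes, which held 61.1% of the variance, the other 5 Hi arrays lay between -20.1 and -17.8, the other 2 Lo control arrays at 7.18 and 6.75, and the Lo PMX arrays between 30.4 and 32.2, but the array labelled Hi control replicate 3 lay at 8.94 and the array labelled Lo control replicate 3 at -19.3. Each thus lay beside arrays of the other folate level. Their labels were kept, whether the 2 samples were exchanged was not tested, and if they were, the control values over all 12 arrays would mix both folate levels. The main values that use control arrays are therefore given with all 12 arrays and with the 10 arrays left when both are set aside. All 8 endothelial markers had mean log2 values of at least 7, from 8.07 for VWF to 12.94 for PECAM1. So did 4 of 6 epithelial and carcinoma, 2 of 4 leukocyte and 2 of 5 fibroblast markers. The leukocyte markers ran from 4.13 for PTPRC, which defines leukocytes, to 9.11 for LYZ. The fibroblast markers ran from 3.98 for DCN to 8.30 for COL1A1. In Lo PMX against Lo control cells the endothelial markers had a median log2 change of -0.67 and 4 of 8 fell (adjusted p under 0.05, limma with Benjamini-Hochberg), or -0.38 and 5 of 8 with 10 arrays; the part of this shift in the results below was not tested. The 6 epithelial and carcinoma markers had a median change of -0.01 with 0 called (10 arrays, -0.04 and 0). All groups are 1 hybrid line, so the markers do not count cells of different types. Bulk RNA cannot tell a change in all cells from one in a part of them.

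The segment as a whole sat slightly higher in Lo cells, but the genes did not shift evenly. In PMX-treated cells the 45 members had a median Lo minus Hi difference of 0.20 on the log2 scale, with an SD over members of 0.553 and a range from -1.47 for GRAMD1C to 1.41 for ABI3BP. Of these members, 31 were higher in Lo PMX than in Hi PMX cells and 14 lower, and 19 (42.2%) lay within 0.2 of their own median. For comparison, 54.7% of all 12212 genes lay within 0.2 of their median of -0.00 (SD 0.431). Of the 620 genes of chromosome 3 outside the segment, 51.3% lay within 0.2 of theirs (SD 0.447). The members were spread somewhat more widely than both, which is a description only, as these values chose the segment. In control cells the median was 0.09 with 12 arrays (SD 0.145, 32 above and 12 below 0, 86.7% within 0.2 of the median) and 0.16 with 10 arrays (SD 0.367, 33 above and 12 below 0, 60.0% within 0.2). Of all 12212 genes, 92.9% lay within 0.2 of their control median with 12 arrays (SD 0.118) and 71.4% with 10 (SD 0.279). Of these genes 51.0% and 47.2% were above 0. The model's median standard error of such a difference over members pools the spread of all groups. It was 0.126 with 12 and 0.094 with 10 arrays in treated cells, and 0.126 and 0.115 in control cells. The mean over members, which gives weight to the genes that ran the other way, was 0.12 in treated cells and 0.07 in control cells (10 arrays, 0.10).

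**Figure D1:**
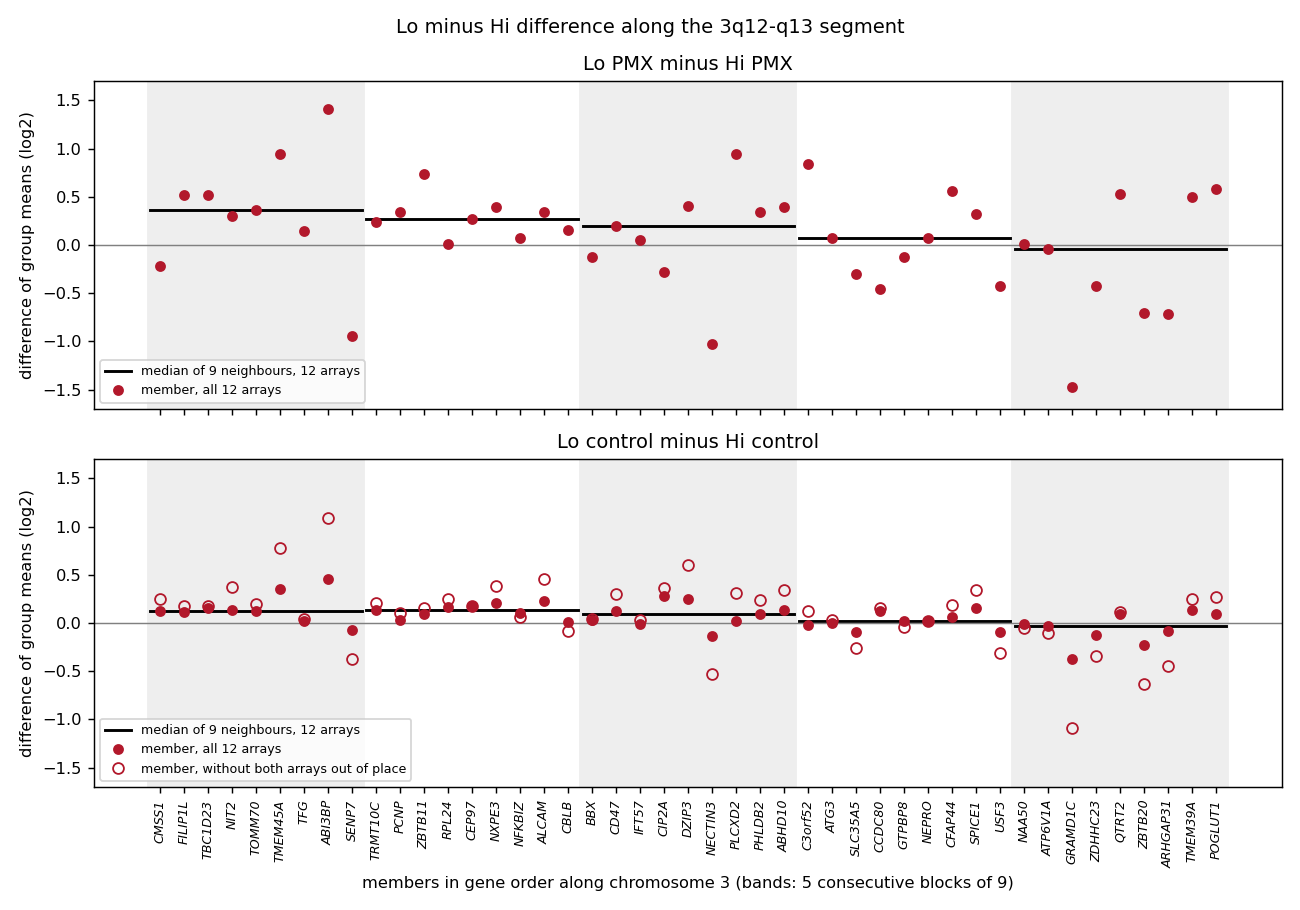
Difference in mean log2 value of Lo minus Hi cells (vertical axis) for 45 members in gene order along chromosome 3 (horizontal axis), in PMX-treated cells above and control cells below. Filled points use all 12 arrays, open points leave out both arrays out of place, grey and white bands mark blocks of 9 neighbours and black lines their medians, which in treated cells run from 0.36 in the first block to -0.04 in the last.

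Groups that did not overlap were found in both directions. Every Lo PMX array was above every Hi PMX array for 20 of 45 members (44.4%, against 22.0% of the 12212 genes), and every one was below for 9 (20%, against 24.0%). In control cells with 10 arrays these counts were 19 above and 8 below (42.2% and 17.8%, against 25.2% and 27.8% of all genes). With 12 arrays RPL24, a protein of the large ribosomal subunit, was the one of these 45 members with non-overlapping control groups, higher in Lo cells, and none of the 45 was lower (2.06% and 1.83% of all genes). RPL24 had 2 probe sets, of which the brighter was used. Whether the probes of that set match only the gene in the segment was not tested. Of the 5 dimmer members, CD200, a membrane glycoprotein at a mean log2 value of 5.88, had every Lo control array below every Hi control array, by -0.13. Since these contrasts chose the segment, the counts are not a test of it.

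The level of the segment also varied between arrays of a group. For each array, the median deviation of the 45 members from their means over 12 arrays was -0.01, 0.10 and 0.17 in the Lo PMX replicates 1 to 3, 0.02, 0.09 and -0.05 in Lo control cells, -0.21, -0.07 and 0.02 in Hi PMX cells, and -0.08, -0.02 and 0.00 in Hi control cells. The lowest of the 12 was Hi PMX replicate 1, and Lo PMX replicate 1 lay below Hi PMX replicate 3, so the treated groups overlapped. Between arrays of the same replicate number, the median Lo minus Hi difference was 0.25, 0.21 and 0.15 in treated cells. In control cells it was 0.11, 0.16 and -0.01, the last between both arrays out of place. Without Hi PMX replicate 1 the treated median was 0.09, and without Lo control replicate 2 the control median was 0.01. The same median over all 12212 genes stayed between -0.01 and 0.01 on the 12 arrays.

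**Figure D2:**
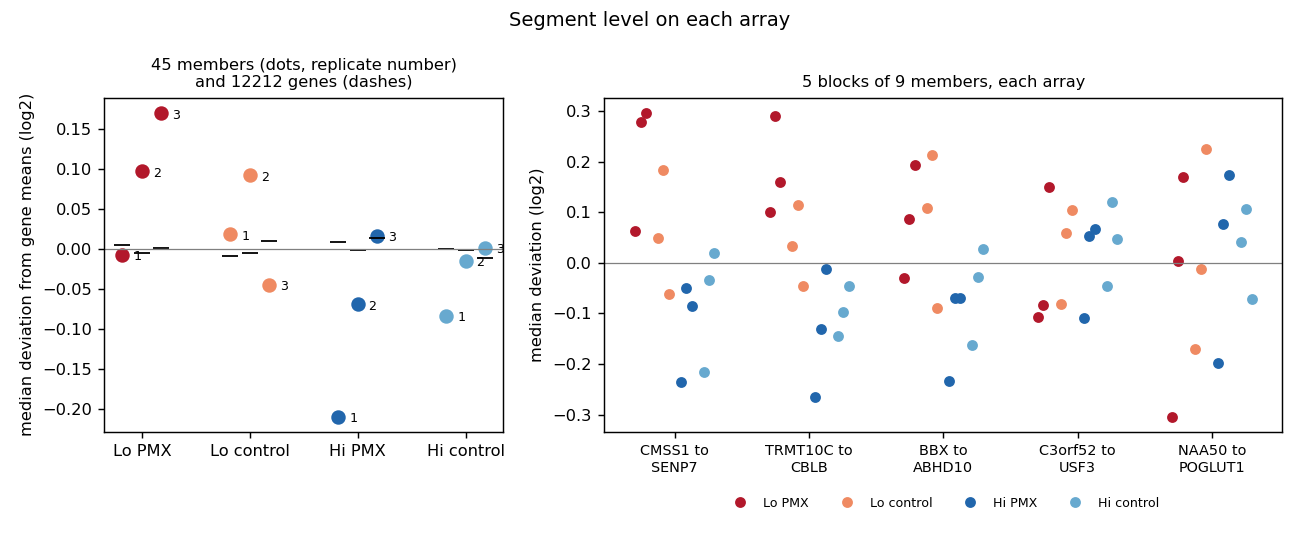
Left, median deviation of 45 members from their gene means on each of 12 arrays (dots, numbered by replicate, log2) with the median of 12212 genes (dashes). Right, the same median for each of 5 blocks of 9 neighbouring members; the Lo PMX replicates span -0.01 to 0.17 and the Hi PMX replicates -0.21 to 0.02.

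Along the order of genes the median treated difference of neighbouring members was highest toward the CMSS1 end and close to 0 toward the POGLUT1 end. Single members did not follow this order, and CMSS1 itself had -0.22. In 5 consecutive blocks of 9 members, the treated medians were 0.36 from CMSS1 to SENP7, 0.26 from TRMT10C to CBLB, 0.20 from BBX to ABHD10, 0.07 from C3orf52 to USF3 and -0.04 from NAA50 to POGLUT1. The control medians in the same order were 0.13, 0.14, 0.09, 0.02 and -0.03 with 12 arrays, and 0.20, 0.17, 0.31, 0.03 and -0.10 with 10 arrays. The block from TRMT10C to CBLB was the most even: all 9 members were higher in Lo PMX than in Hi PMX cells, from 0.01 for RPL24 to 0.74 for ZBTB11, with an SD of 0.213. The first block held both ABI3BP at 1.41 and its neighbour SENP7 at -0.94, and the last block, with an SD of 0.697, ran from GRAMD1C at -1.47 to POGLUT1 at 0.58. In that last block 4 members were above 0 and 5 below, and 2 of the 9 lay within 0.2 of the block median. Of 44 pairs of neighbouring members, 17 had opposite signs in treated cells and 14 in control cells with either set of arrays. The median step between neighbours was 0.39 in treated cells and 0.25 in control cells with 10 arrays. The step from ABI3BP to SENP7 was the largest in each (2.35 and 1.47). With 12 arrays the control steps were 0.10 at the median and 0.53 at most. Signs and steps of neighbours were not counted for other genes, so they do not show whether this segment is less even than others.

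Ranked by the control difference with 12 arrays, the 6 highest members came from the first 3 blocks, with a matrix gene at the top. Ranked by the treated difference, ABI3BP, TMEM45A and PLCXD2 (0.94) were followed by C3orf52 (0.84) of the fourth block. ABI3BP, an extracellular matrix protein, had 9.80, 10.01 and 9.90 in Lo PMX, 9.64, 9.95 and 8.68 in Lo control, 7.91, 8.80 and 8.78 in Hi PMX and 8.37, 9.02 and 9.49 in Hi control cells. Every Lo PMX array was above every Hi PMX array, and in control cells the groups separated only when the third array of each was set aside. Its difference was 0.46 in control cells with 12 arrays, 1.09 with 10 arrays and 1.41 in treated cells. TMEM45A, a membrane protein known from studies of hypoxia, had 9.43, 9.41 and 9.36 in Lo PMX, 9.42, 9.26 and 8.61 in Lo control, 8.48, 8.35 and 8.52 in Hi PMX and 8.64, 8.48 and 9.10 in Hi control cells. The pattern of arrays was the same as for ABI3BP, and its differences were 0.36, 0.78 and 0.95 in the same order.

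DZIP3, an RNA-binding ubiquitin ligase, ALCAM, an adhesion molecule of the immunoglobulin family, and NXPE3, a little-studied member of the neurexophilin family whose gene overlaps NFKBIZ, repeated this with smaller steps. DZIP3 had 9.03, 9.23 and 9.19 in Lo PMX, 9.33, 9.44 and 8.78 in Lo control, 8.52, 8.79 and 8.93 in Hi PMX and 8.71, 8.85 and 9.24 in Hi control cells. ALCAM had 11.63, 11.83 and 11.81 in Lo PMX, 11.90, 11.97 and 11.60 in Lo control, 11.28, 11.46 and 11.50 in Hi PMX and 11.42, 11.53 and 11.82 in Hi control cells. NXPE3 had 10.02, 10.31 and 9.95 in Lo PMX, 10.13, 10.16 and 9.68 in Lo control, 9.63, 9.67 and 9.80 in Hi PMX and 9.75, 9.78 and 9.82 in Hi control cells. All 3 had every Lo PMX array above every Hi PMX array, and their differences in control cells with 12 arrays, control cells with 10 arrays and treated cells were 0.25, 0.61 and 0.41 for DZIP3, 0.23, 0.46 and 0.34 for ALCAM and 0.21, 0.38 and 0.39 for NXPE3. CIP2A, an inhibitor of the phosphatase PP2A that is active in dividing cells, took another course. It had 8.43, 8.79 and 8.75 in Lo PMX, 9.11, 9.51 and 9.22 in Lo control, 8.41, 9.03 and 9.37 in Hi PMX and 8.73, 9.17 and 9.11 in Hi control cells. It was 0.28 higher in Lo than in Hi control cells with 12 arrays and 0.36 with 10, but -0.28 in treated cells, where the groups overlapped.

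The 6 lowest members by the same control difference lay in the last 3 blocks, 3 of them in the last. Ranked by the treated difference, SENP7 (-0.94) of the first block followed GRAMD1C and NECTIN3. GRAMD1C, which carries cholesterol between membranes at contact sites, had 8.51, 8.39 and 8.59 in Lo PMX, 8.99, 8.96 and 9.87 in Lo control, 9.86, 10.07 and 9.96 in Hi PMX and 10.07, 10.05 and 8.81 in Hi control cells. Every Lo PMX array was below every Hi PMX array, and both other Lo control arrays were below both other Hi control arrays once the third array of each was set aside. The differences were -0.37 in control cells with 12 arrays, -1.09 with 10 and -1.47 in treated cells. ZBTB20, a zinc finger repressor, had 9.12, 9.15 and 9.23 in Lo PMX, 9.01, 9.36 and 9.76 in Lo control, 9.67, 9.96 and 9.97 in Hi PMX and 9.67, 9.97 and 9.17 in Hi control cells. Its differences were -0.22, -0.63 and -0.70, again with the Lo PMX arrays all below the Hi PMX arrays.

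NECTIN3, a nectin of adherens junctions, had 10.39, 10.26 and 10.33 in Lo PMX, 10.97, 10.84 and 11.42 in Lo control, 11.38, 11.33 and 11.37 in Hi PMX and 11.54, 11.32 and 10.77 in Hi control cells. The Lo PMX arrays were the 3 lowest of the 12, and the differences were -0.14, -0.53 and -1.03 in control cells with 12 arrays, control cells with 10 arrays and treated cells. ZDHHC23, a palmitoyltransferase, had 7.55, 7.63 and 7.62 in Lo PMX, 7.68, 7.73 and 8.10 in Lo control, 7.91, 8.19 and 7.98 in Hi PMX and 8.14, 7.96 and 7.79 in Hi control cells. USF3, a helix-loop-helix factor, had 9.60, 9.91 and 9.89 in Lo PMX, 9.83, 10.04 and 10.24 in Lo control, 10.03, 10.33 and 10.30 in Hi PMX and 10.14, 10.36 and 9.90 in Hi control cells. SLC35A5, a nucleotide sugar transporter whose gene overlaps ATG3, had 10.54, 10.65 and 10.72 in Lo PMX, 10.67, 10.84 and 10.96 in Lo control, 10.86, 11.06 and 10.90 in Hi PMX and 11.01, 11.02 and 10.73 in Hi control cells. These 3 were lower by less than NECTIN3: the treated differences were -0.43 for ZDHHC23, -0.42 for USF3 and -0.30 for SLC35A5, with no overlap between the treated groups, and the control differences were -0.12, -0.10 and -0.09 with 12 and -0.34, -0.31 and -0.26 with 10 arrays.

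The promoter of ABI3BP is shown because it had the largest Lo minus Hi difference of the members. That of NECTIN3 is shown because its change with PMX in Lo cells was among the largest that passed the threshold (limma with Benjamini-Hochberg). PLCXD2 and SENP7 also had large changes there but no promoter sequence was available for them. Each run holds 250 bases before and 50 after the gene's start, from RefSeq on GRCh38.p14. ABI3BP lies at chr3:100993372-100993671 on the minus strand and NECTIN3 at chr3:111071566-111071865 on the plus strand. Capitals mark TATAAA (the TATA box core) or GGGCGG (the GC box), read on either strand.
ABI3BP: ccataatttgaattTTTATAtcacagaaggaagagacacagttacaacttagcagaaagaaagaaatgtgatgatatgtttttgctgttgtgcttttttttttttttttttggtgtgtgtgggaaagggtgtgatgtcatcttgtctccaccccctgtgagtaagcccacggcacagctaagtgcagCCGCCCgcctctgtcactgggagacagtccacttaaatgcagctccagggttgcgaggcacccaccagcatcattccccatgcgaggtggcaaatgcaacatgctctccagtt
NECTIN3: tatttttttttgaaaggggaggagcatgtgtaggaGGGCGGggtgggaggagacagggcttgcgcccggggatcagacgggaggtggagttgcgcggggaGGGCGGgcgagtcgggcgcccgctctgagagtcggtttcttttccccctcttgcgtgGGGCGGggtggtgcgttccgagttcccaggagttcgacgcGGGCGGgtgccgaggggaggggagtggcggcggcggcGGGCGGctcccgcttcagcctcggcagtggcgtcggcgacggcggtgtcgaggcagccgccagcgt
The ABI3BP window held 1 match to TATAAA, 1 to GGGCGG and 46.3% G and C, while the NECTIN3 window held 5 to GGGCGG, none to TATAAA and 70.3% G and C. Neither window held CCAAT or CACGTG. Promoters of 45 of the 50 measured members were in the table, of which 32 held GGGCGG, 15 CCAAT, 6 TATAAA and 5 CACGTG on either strand, against 44.6%, 35.7%, 12% and 7.43% of 27305 promoters of the same length. The median G and C content was 60.7% over the members' promoters and 58.3% over all. No motif searched is contained in another, and a match is a description of the letters only.

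Values of the end genes and of the genes just beyond them follow. CMSS1, a little-studied nucleolar protein, had 10.78, 11.06 and 10.82 in Lo PMX, 11.16, 11.25 and 11.08 in Lo control, 10.96, 11.02 and 11.32 in Hi PMX and 10.86, 11.06 and 11.20 in Hi control cells. POGLUT1, which adds glucose to Notch, had 9.45, 9.83 and 9.75 in Lo PMX, 9.17, 9.56 and 9.19 in Lo control, 8.85, 9.10 and 9.34 in Hi PMX and 8.98, 9.21 and 9.44 in Hi control cells. CMSS1 was 0.13 higher in Lo than in Hi control cells (10 arrays, 0.25) and -0.22 in treated cells, and POGLUT1 was 0.09 higher in control cells (10 arrays, 0.27) and 0.58 in treated cells. Just outside CMSS1, the treated differences were 0.18 for CPOX, an enzyme of haem synthesis, 0.23 for DCBLD2, a membrane receptor, and -0.78 for COL8A1, a collagen of vessel walls. Just outside POGLUT1 they were 0.24 for TIMMDC1, an assembly factor of respiratory complex I, -0.02 for GSK3B, a protein kinase, and -0.04 for LRRC58. In control cells with 10 arrays these 6 genes had differences of 0.14, 0.18, 0.12, 0.07, -0.03 and -0.05 in the same order.

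**Figure D3:**
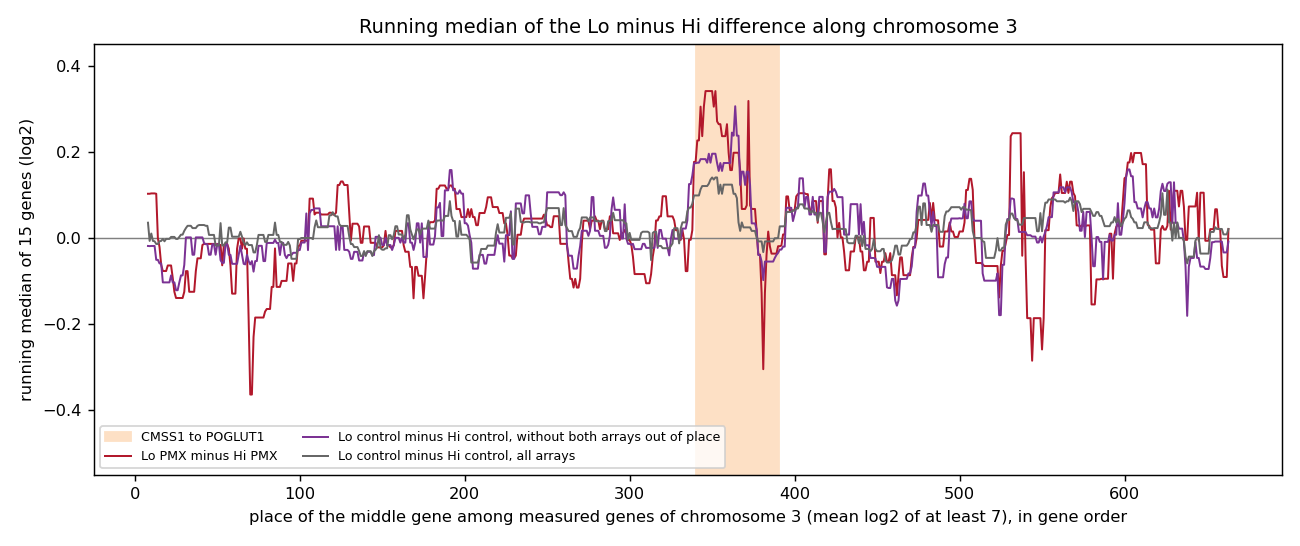
Running median of the Lo minus Hi difference (vertical axis, log2) over 15 neighbouring genes with a mean log2 value of at least 7, by the place of the middle gene in the order of chromosome 3 (horizontal axis). The shaded span runs from CMSS1 to POGLUT1, where the treated line reaches 0.34 near CMSS1 and falls to -0.30 near NAA50, while lines outside stay between -0.36 and 0.24.

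Over all genes of chromosome 3 outside the segment, the 620 genes with a mean log2 value of at least 7 had a treated median of 0.01 (SD 0.447) and control medians of 0.02 with 12 and -0.00 with 10 arrays. The 20 genes before CMSS1 had a treated median of 0.06, and the 20 after POGLUT1 had 0.10. Windows of 15 neighbouring genes lying wholly inside the segment, 36 in number and with unlisted genes included, had treated medians from -0.30 around NAA50 to 0.34 from CMSS1 to RPL24, and 30 of the 36 were above 0. The 592 windows wholly outside ran from -0.36 around PLCL2 to 0.24 around RAP2B. In control cells with 10 arrays the inside windows ran from -0.10 to 0.31, the highest one reaching from NXPE3 to ABHD10, and the outside windows from -0.18 to 0.16. The highest windows of chromosome 3 lay in the first and middle stretches of the segment, and its last stretch held windows among the low ones. Since Lo minus Hi values chose the segment, its high windows are a description and no test. Medians of whole chromosomes ran from -0.05 to 0.02 in treated cells over 22 other chromosomes, with 0.02 for chromosome 3.

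Grouped by role, members differed in direction as well as size. The 4 matrix and cytoskeletal members had a treated median of 0.43, with CCDC80, a secreted matrix protein, at -0.46 as the one lower in Lo cells. Among 4 members of other or little-known function, TMEM45A, PLCXD2, C3orf52 and NXPE3, all were higher, with a median of 0.89. The 5 centrosome, spindle and cilium members had 0.26, from -0.28 for CIP2A to 0.56 for CFAP44, an axonemal protein. The 13 members of organelles, trafficking and metabolism had 0.15, and the 6 of translation and RNA modification 0.05, from -0.22 for CMSS1 to 0.52 for QTRT2. The 10 transcription and signalling regulators had -0.03, from -0.94 for SENP7 to 0.74 for ZBTB11. Of the 3 surface and adhesion members above the level limit, ALCAM (0.34) and CD47 (0.20), the signal that restrains phagocytes, were higher and NECTIN3 lower. The control differences had the same sign as the treated ones for 36 of 45 members with 12 arrays and 39 with 10. Whatever the sign, the treated difference was the larger in absolute size for 43 of the 45 members with 12 arrays and 35 with 10. Over all 12212 genes the same sign was found for 62.3% with 12 and 69.8% with 10 arrays, against 80.0% and 86.7% of the members, and a larger treated difference for 78.4% and 66.5%, against 95.6% and 77.8% of the members. Both differences chose the segment, so the shares of members are a description and not an independent agreement. The treated and control differences use different arrays, and no test was made of the likeness.

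A minority of the members passed the threshold for a change with pemetrexed in Lo cells, and a member not called is not shown to be unchanged. In Lo PMX against Lo control cells, 8 of the 50 members passed an adjusted p under 0.05 (16%), which is read against 10.7% of all 18417 genes. Members higher with PMX numbered 5 (5.6% of all genes were higher) and members lower 3 (5.14% of genes). At a mean log2 value of at least 7 the shares were 8 of 45 members (17.8%) and 14.5% of genes. The higher ones were PLCXD2, C3orf52, ZBTB11, FILIP1L and QTRT2 and the lower ones NECTIN3, SENP7 and CCDC80, from all 5 blocks. The median change of the 50 members was 0.05, beside 0.02 for all genes (10 arrays, 0.01 and 0.03). With 10 arrays 7 members were called (14%, against 11.0% of genes), 3 higher and 4 lower (5.21% and 5.74% of genes): FILIP1L and QTRT2 dropped out and GRAMD1C came in as lower. The count was 3 without Lo control replicate 3, 3 without Lo PMX replicate 3 and 5 without Lo PMX replicate 2. With a replicate block it was 11 (22.0%, against 12.2% of genes), and 16 with both arrays also set aside (32.0%, against 18.4%). This contrast was not the one that chose the segment, although it shares the Lo arrays with it.

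**Figure D4:**
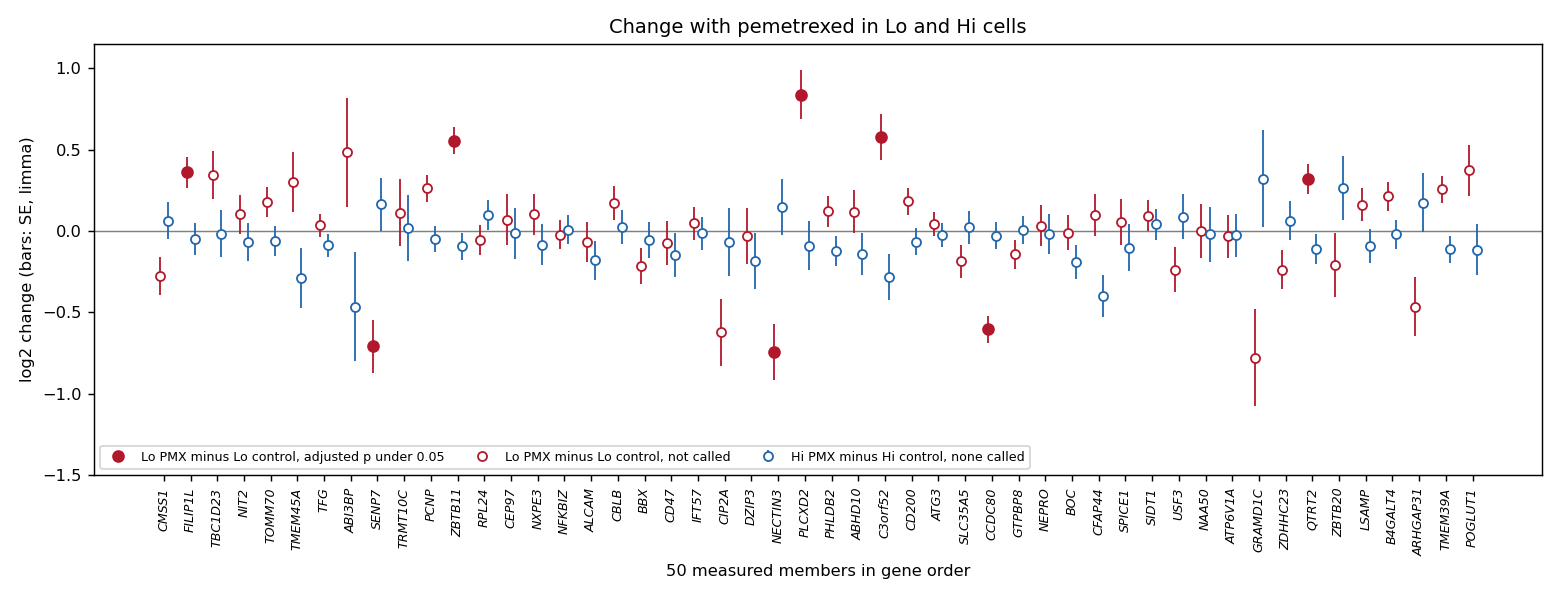
Log2 change with PMX (vertical axis, bars are the standard error of the limma model) for the 50 measured members in gene order (horizontal axis), in Lo cells (red) and Hi cells (blue). Filled points mark the 8 members with an adjusted p under 0.05 in Lo cells, 5 higher and 3 lower; no member was called in Hi cells.

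CCDC80 had the smallest p. CCDC80 read 10.05, 10.27 and 10.08 in Lo PMX, 10.74, 10.85 and 10.62 in Lo control, 10.51, 10.63 and 10.63 in Hi PMX and 10.60, 10.68 and 10.57 in Hi control cells. The Lo PMX arrays were the 3 lowest of all, and the other 3 groups overlapped one another. The change in Lo cells was -0.61 ± 0.08 (± the model's standard error, adjusted p 0.000652, limma with Benjamini-Hochberg) and -0.66 ± 0.09 with 10 arrays (0.00048). ZBTB11, a zinc finger transcription factor, read 10.42, 10.50 and 10.49 in Lo PMX, 10.02, 9.89 and 9.83 in Lo control, 9.69, 9.67 and 9.82 in Hi PMX and 9.93, 9.67 and 9.87 in Hi control cells. Its 3 Lo PMX arrays were above all 9 others, and the change was 0.56 ± 0.08 (adjusted p 0.00103; 10 arrays, 0.51 ± 0.09, 0.00313). PLCXD2, a member of the phosphoinositide phospholipase C family, read 8.55, 8.33 and 8.38 in Lo PMX, 7.77, 7.84 and 7.14 in Lo control, 7.54, 7.47 and 7.41 in Hi PMX and 7.56, 7.42 and 7.72 in Hi control cells. All Lo PMX arrays were above the rest, and the array labelled Lo control replicate 3 was the lowest of the 12. The change was 0.84 ± 0.15 (adjusted p 0.00351) with it and 0.62 ± 0.09 (0.000676) with 10 arrays. CCDC80, ZBTB11 and PLCXD2 kept this call under all 22 alternatives run.

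The other 2 that fell were a SUMO protease and the nectin. SENP7, which trims SUMO chains from proteins, read 6.66, 6.57 and 6.22 in Lo PMX, 7.14, 7.06 and 7.38 in Lo control, 7.50, 7.35 and 7.43 in Hi PMX and 7.53, 7.42 and 6.84 in Hi control cells. Its Lo PMX arrays were below all others, at levels near the dim end of the members, and the array labelled Hi control replicate 3 was the lowest outside that group. The change was -0.71 ± 0.16 (adjusted p 0.0151; 10 arrays, -0.62 ± 0.12, 0.00446). NECTIN3, whose 3 Lo PMX arrays were the lowest of the 12, changed by -0.74 ± 0.17 (adjusted p 0.0156; 10 arrays, -0.57 ± 0.09, 0.00101). GRAMD1C had every Lo PMX array below every Lo control array, with a change of -0.78 ± 0.30 that was not called with 12 arrays (adjusted p 0.129) and one of -0.48 ± 0.09 that was called with 10 (0.00331). SENP7 lost its call without Lo control replicate 3 and without Lo PMX replicate 3, and NECTIN3 without these or without Lo PMX replicate 2, at adjusted p up to 0.0740 and 0.0618.

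Of the remaining members that rose, C3orf52, a membrane protein of the endoplasmic reticulum, read 8.67, 8.61 and 9.11 in Lo PMX, 8.22, 8.36 and 8.08 in Lo control, 7.79, 7.86 and 8.21 in Hi PMX and 8.16, 8.17 and 8.38 in Hi control cells. Its Lo PMX arrays lay above all others, and the change was 0.58 ± 0.14 (adjusted p 0.0199; 10 arrays, 0.51 ± 0.15, 0.0497), lost without Lo control replicate 3 or Lo PMX replicate 3 (adjusted p up to 0.0818). FILIP1L, a filamin-binding protein known to restrain endothelial migration, read 7.74, 7.93 and 7.94 in Lo PMX, 7.52, 7.59 and 7.43 in Lo control, 7.23, 7.48 and 7.34 in Hi PMX and 7.23, 7.53 and 7.44 in Hi control cells. QTRT2, a subunit of the enzyme that puts queuine into transfer RNA, read 10.00, 10.24 and 10.24 in Lo PMX, 9.87, 9.94 and 9.71 in Lo control, 9.52, 9.75 and 9.65 in Hi PMX and 9.78, 9.81 and 9.66 in Hi control cells. Both had their Lo PMX arrays above every other array, with changes of 0.36 ± 0.10 (adjusted p 0.0311) and 0.32 ± 0.09 (adjusted p 0.0439), and neither was called with 10 arrays (0.32 ± 0.11, 0.0845 and 0.26 ± 0.09, 0.118). FILIP1L also lost its call without Lo control replicate 1 or 3 or Lo PMX replicate 2 or 3 (up to 0.115). QTRT2 lost it without any 1 array other than Hi control replicate 3, Hi PMX replicate 1 or Lo PMX replicate 1 (up to 0.171). FILIP1L overlaps CMSS1 in the annotation, and how far their probe sets share signal was not tested; CMSS1 had a change of -0.28 ± 0.12 (adjusted p 0.163; 10 arrays, -0.32 ± 0.12, 0.119).

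**Figure D5:**
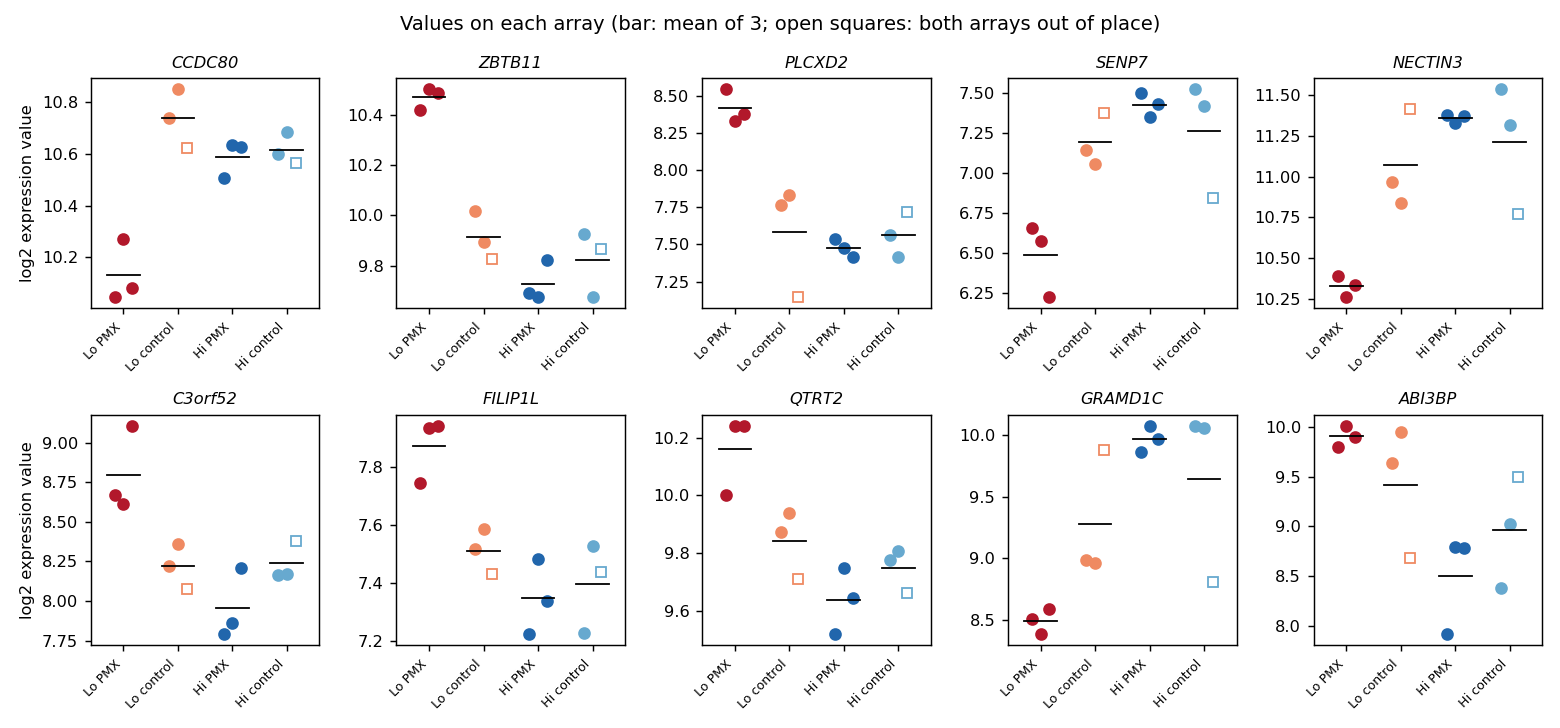
Log2 expression value on each of the 12 arrays for the 8 members called in Lo PMX cells and for GRAMD1C and ABI3BP, by group from Lo PMX to Hi control; bars are means of 3. Open squares are the arrays labelled Lo control replicate 3 and Hi control replicate 3, which for GRAMD1C lie at 9.87 and 8.81.

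By role, the calls in Lo cells were 1 of 6 members of translation and RNA modification (QTRT2), 2 of 4 of matrix and cytoskeleton (FILIP1L higher, CCDC80 lower), 2 of 10 transcription and signalling regulators (ZBTB11 higher, SENP7 lower), 1 of 6 surface and adhesion proteins (NECTIN3), 2 of 4 of other or little-known function (PLCXD2 and C3orf52), 0 of 15 of organelles, trafficking and metabolism (with 10 arrays 1, GRAMD1C) and 0 of 5 of centrosome, spindle and cilium. All these role counts are small and stand beside the 10.7% of all genes called. At an unadjusted p under 0.05, 5 of the 15 organelle members passed (2 with 10 arrays), beside 17 of all 50 members (34.0%) and 23.2% of all genes (10 arrays, 32.0% and 22.7%), and the organelle group ran from -0.78 for GRAMD1C to 0.37 for POGLUT1. NFKBIZ, the nuclear inhibitor protein that works with NF-kB at inflammatory genes, had 8.92, 8.76 and 8.88 in Lo PMX, 8.99, 8.77 and 8.86 in Lo control, 8.76, 8.67 and 8.92 in Hi PMX and 8.87, 8.76 and 8.69 in Hi control cells. Its groups overlapped throughout, and its change in Lo cells was -0.02 ± 0.09 (adjusted p 0.925; 10 arrays, -0.03 ± 0.10, 0.917), whereas 5 of 9 other NF-kB targets rose and 1 fell, with a median change of 0.75 (10 arrays, 6 rose and 1 fell, 0.73). CIP2A had every Lo PMX array below every Lo control array and a change of -0.62 ± 0.21 (adjusted p 0.0796; 10 arrays, -0.65 ± 0.24, 0.111) that missed the threshold, while 10 of 10 cell division genes such as PLK1 and TOP2A fell, with a median of -1.35 (10 arrays, 10 and -1.5); SPICE1 and CEP97, which act at spindle and centriole, had 0.05 ± 0.14 and 0.07 ± 0.15 (10 arrays, -0.05 ± 0.14 and 0.10 ± 0.18). Of 9 p53 targets, 6 rose, with a median of 0.71 (10 arrays, 6 and 0.65).

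In Hi cells no member was called with either set of arrays, nor was any of the 18417 genes (0.0%, limma with Benjamini-Hochberg). At an unadjusted p under 0.05, 1 member passed, as did 266 genes with 12 arrays and 335 with 10. That member was CFAP44, with 8.48, 8.13 and 8.66 in Lo PMX, 8.28, 8.46 and 8.24 in Lo control, 7.83, 7.88 and 7.87 in Hi PMX and 8.03, 8.34 and 8.41 in Hi control cells. Its 3 Hi PMX arrays were the lowest of the 12, and its change was -0.40 ± 0.13 (unadjusted p 0.00831, limma; 10 arrays, -0.33 ± 0.14, 0.0350). The members called in Lo cells had changes in Hi cells between -0.28 (C3orf52) and 0.16 (SENP7), or with 10 arrays between -0.21 (C3orf52) and -0.01 (PLCXD2).

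The interaction, the change with PMX in Lo cells less the change in Hi cells, was called for 4 of 50 members (8.0%, against 4.81% of all genes). Of these, 3 were higher (2.57% of genes) and 1 lower (2.24%). ZBTB11 had 0.65 ± 0.12 (adjusted p 0.00874), CCDC80 -0.58 ± 0.12 (0.0164), PLCXD2 0.93 ± 0.21 (0.0281) and C3orf52 0.86 ± 0.20 (0.0296). With 10 arrays 4 were called (against 4.16% of genes, 2.02% higher and 2.14% lower): PLCXD2 at 0.63 ± 0.12 (adjusted p 0.0131), CCDC80 at -0.61 ± 0.12 (0.0179), ZBTB11 at 0.58 ± 0.13 (0.0245) and NECTIN3 at -0.50 ± 0.12 (0.0374), while C3orf52 was not (0.72 ± 0.21, 0.0915). The interaction equals the treated Lo minus Hi difference less the control one, both of which chose the segment, so its values and counts over members are a description, and the adjusted p, over all genes, supports nothing about the segment. The number called was 7 without Hi control replicate 1, 2 without Hi control replicate 3, 2 without Hi PMX replicate 2 and 1 without Lo PMX replicate 3.

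Among the 32 measured genes between the ends that the list leaves out, 2 were called in Lo PMX against Lo control cells (6.25%, against 10.7% of all genes), and 3 with 10 arrays (9.38%, against 11.0%). ADGRG7, an orphan adhesion receptor at a dim mean log2 value of 4.67, changed by 0.35 ± 0.07 (adjusted p 0.00816; 10 arrays, 0.37 ± 0.08, 0.0127), and ZBTB11-AS1, the antisense partner of ZBTB11, by 0.35 ± 0.10 (adjusted p 0.0337; 10 arrays, 0.43 ± 0.08, 0.00454). MYH15, a myosin heavy chain at a mean log2 value of 6.33, was called with 10 arrays (-0.24 ± 0.07, adjusted p 0.0417) and not with 12 (-0.24 ± 0.07, 0.0604). How far signal of one strand reaches the other's probe set was not tested. ARB2BP, just over the level limit at a mean of 7.07, had the largest treated Lo minus Hi difference between the ends, 1.58, and a change with PMX in Lo cells of 0.67 ± 0.25 (adjusted p 0.114; 10 arrays, 0.42 ± 0.18, 0.177). With the unlisted genes included, the 50 genes with a mean log2 value of at least 7 had a treated median of 0.22 and a control median of 0.09 (10 arrays, 0.15).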

How the data were processed

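Total RNA was hybridised as biotin-labelled target to whole-transcript arrays, 1 array per sample and 12 in all. Each deposited value is the log2 expression of a probe set after RMA, which the authors ran in Partek 6.5, per the submitters' processing notes. Neither the settings of RMA nor a genome build is given in the sources used here. Detection calls were not used, so the level at which a gene is detectable is unknown, and the 3 arrays per group limit the precision.

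Of 33297 probe sets, 19460 carried 1 gene symbol in the platform's annotation, 1754 several and 12083 none. Genes were taken from probe sets with 1 symbol, using the brightest by mean for the 769 genes with more than 1, which gave 18417 genes. Of these, 18389 were found by Entrez identifier in RefSeq genes of GRCh38.p14, used for names and gene order. No further normalization was applied.

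All genes and 12 arrays entered 1 linear model with 4 group means and 8 residual degrees of freedom (R 4.3.3, limma 3.58.1 with lmFit and eBayes). PMX against control in Lo cells, the same in Hi cells and the interaction were tested, two-sided, with Benjamini-Hochberg adjustment over all genes and a call at an adjusted p under 0.05. The fit was checked on simulated data. Lo minus Hi differences were not tested, since they chose the segment. Medians, blocks and windows used Python 3.11.15 with pandas 2.3.3. Replicates are labelled biological but come from 1 cell line, and p-values reflect only their spread.

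The members, the gene lists and the tests were chosen with earlier results of these data known. Values in every array are given for called members, for the 6 members with the highest and the 6 with the lowest control difference and for both end genes; NFKBIZ and CFAP44 were added after their values were seen. Up to 6 unlisted genes of the interval could be named by smallest p in Lo cells. Alternatives were array centring, repeated quantile normalization, the mean of probe sets, level limits, an intensity trend, the contrasted groups alone, the replicate block and leaving out arrays.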

Additional observations from a re-analysis of the deposited data

Results flagged for a closer look

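For 4 members the interaction, the response to PMX in Lo cells less that in Hi cells, passed the threshold (limma, Benjamini-Hochberg over 18417 genes). The interaction is made of the treated and control Lo minus Hi differences that chose the segment, so these values are a description and no independent test of the members. ZBTB11 responded more in Lo cells by 0.65 on the log2 scale (adjusted p 0.00874), with a change of 0.56 in Lo cells and -0.09 in Hi cells. PLCXD2 responded more by 0.93 (adjusted p 0.0281), with 0.84 in Lo and -0.09 in Hi cells, and C3orf52 by 0.86 (adjusted p 0.0296), with 0.58 in Lo and -0.28 in Hi cells. CCDC80 had a difference of -0.58 (adjusted p 0.0164), with -0.61 in Lo and -0.03 in Hi cells. C3orf52 was not called with the 10 arrays left when both arrays out of place are set aside, nor without Hi control replicate 3, Lo control replicate 3, Hi PMX replicate 1 or 2 or Lo PMX replicate 3 (adjusted p up to 0.0915). PLCXD2 lost its call without Hi control replicate 3, Hi PMX replicate 2 or 3, or Lo PMX replicate 1 or 3 (up to 0.0729), and CCDC80 without Lo PMX replicate 3 (0.0504).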

How the results depend on the processing

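The number of members called in Lo PMX against Lo control cells was 8 and ranged from 3 to 10 as each array was left out; it was 11 with a replicate block (22.0%, against 12.2% of all genes) and 16 with a replicate block without both arrays out of place (32.0%, against 18.4%). For the interaction the count was 4, ranged from 1 to 7 as each array was left out, and was 6 with a replicate block (12%, against 5.4% of all genes) and 8 with a replicate block without both arrays (16%, against 9.44%). In Hi cells it was 0 under all 22 alternatives. Over the 12 named changes and their 260 alternatives, 223 kept the call, 37 lost it and 0 reversed; the call of QTRT2 was lost in 13, with adjusted p up to 0.171, and that of FILIP1L in 5, up to 0.115. With 12 arrays the deviations of same-numbered arrays correlated above 0.1 in 11 of 18 pairs (-0.656 to 0.514, median of other pairs -0.057). On that ground the main fit did not pair the samples by number. Without both arrays out of place 13 of 13 pairs correlated above 0.1 (0.115 to 0.543, median of other pairs -0.302). Deviations were taken from group means and cancel within a group. The pairs are therefore not independent, and the negative sign of the other pairs is partly set by this centring. The main fit leaves out the likeness of same-numbered arrays seen in these 10 arrays, and the replicate block counts above include it. Taken between arrays of the same replicate number, the median Lo minus Hi difference of the 45 members was 0.25, 0.21 and 0.15 in treated cells for numbers 1 to 3, and 0.11, 0.16 and -0.01 in control cells, the last being between both arrays out of place. The SD of the control difference over members was 0.145 with 12 arrays and 0.367 without both arrays, and ranged from 0.0992 to 0.258 as each array was left out; that of the treated difference ranged from 0.542 to 0.572. The medians ranged from 0.01 to 0.13 in control and from 0.09 to 0.25 in treated cells, and the treated mean was 0.12 in place of a median of 0.20. The cause of these changes was not tested. Medians with unlisted genes included were added after seeing the data.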
